A study of Mus musculus with 69 samples.

Results

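Interferon-stimulated genes are genes whose transcription rises in a cell that has received an interferon, and they carry most of the antiviral activity of that signal. A list of 36 of them was followed in the lungs of mice given nano-TiO2, and their probes were found by matching the accession printed on the array to a RefSeq symbol. For 34 of the 36 genes at least 1 probe was found, with 50 probes in all, among 18660 genes that could be tested. Mx1 and Mx2, antiviral GTPases, were not matched and are not analysed here. Of the 34 measured genes, 22 rested on 1 probe and 12 on several, and 31 were well above background in the lung channel on all 69 arrays. The exceptions were Ifit1 and Tap1 (68 arrays each) and Ifi44 (62 arrays).

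The mice were female C57BL/6, aged 5 to 7 weeks on arrival and acclimatised for 1 to 3 weeks. Each received a single intratracheal instillation of 18, 54 or 162 µg of the titanium dioxide nanomaterials (NMs) NRCWE-025 or NRCWE-030, or of the vehicle alone, which was 2% serum in water and was given to the exposed mice too. Lungs were taken on day 1 or day 28, and the RNA of a small frozen piece of each lung, labelled with Cy5, was hybridised with a commercial pool of mouse RNA labelled with Cy3. Of the 14 groups, 13 held 5 mice and the day 28 group given 162 µg of NRCWE-025 held 4, and the vehicle mice of a day served both NMs. A level is given below as a log2 ratio of lung to reference RNA, and a change as a difference of such ratios, so that a change of 1 is a doubling. Levels are compared between samples for the same gene and not between genes.

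Interferons are secreted by cells that sense nucleic acids or microbial products. They bind receptors whose kinases activate STAT proteins. After type I interferon, a complex that holds STAT2 and IRF9 binds the interferon-stimulated response element (ISRE) in promoters, and interferon gamma acts through another element, GAS. The proteins that are made sense RNA, block viral translation and assembly, cut foreign peptides for presentation, and feed back on the pathway. In lung these genes are known above all from respiratory viral infection, and both epithelial and immune cells express them.

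The letters of both elements were searched on both strands of the RefSeq promoters of assembly GRCm38.p6, from 250 bases before the start of transcription to 50 after it. For 27 of the 36 genes the table held a promoter. The ISRE letters GAAA, any 2 bases and GAAA again stood in the promoters of 14 of these 27 genes (51.9%), against 3.99% of the 27025 genes in the table. The GAS letters TTCNNNGAA, in which N is any base, stood in 7 of the 27 (25.9%), against 9.55% of all genes. Of 10 called genes with a promoter in the table (calls are explained below), 5 held the ISRE letters, and so did 9 of the other 17. The letters were not found in this window for Oasl2, Irf7, Xaf1 and Irf1, among others, and Usp18, Zbp1, Dhx58 and Rtp4 had no promoter in the table. The following stretches end at the base before the start of transcription, are read along the strand of the gene, and are shown for Isg15, which had the largest change below, Bst2, which had the smallest adjusted p, the called GTPases Irgm1 and Gbp3, and Irf1, which had the smallest change. Capitals mark the ISRE and GAS letters.
Isg15 (chr4:156200819-156200938, minus strand): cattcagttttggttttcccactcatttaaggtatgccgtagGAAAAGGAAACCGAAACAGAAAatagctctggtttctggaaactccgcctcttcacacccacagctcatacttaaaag
Bst2 (chr8:71537473-71537622, minus strand): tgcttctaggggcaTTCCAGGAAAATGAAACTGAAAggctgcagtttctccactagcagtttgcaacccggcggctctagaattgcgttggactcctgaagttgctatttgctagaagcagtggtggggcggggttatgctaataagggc
Irgm1 (chr11:48871421-48871540, minus strand): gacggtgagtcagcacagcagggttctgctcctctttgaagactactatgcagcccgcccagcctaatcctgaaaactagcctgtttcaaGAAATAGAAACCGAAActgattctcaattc
Gbp3 (chr3:142559924-142560043, plus strand): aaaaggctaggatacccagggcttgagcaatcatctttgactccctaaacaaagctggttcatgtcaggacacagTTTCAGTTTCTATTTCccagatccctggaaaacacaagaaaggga
Irf1 (chr11:53769864-53770013, plus strand): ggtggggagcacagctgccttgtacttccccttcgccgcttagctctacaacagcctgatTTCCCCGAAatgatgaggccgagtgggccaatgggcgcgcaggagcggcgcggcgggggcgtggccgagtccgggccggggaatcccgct
In Isg15 the ISRE letters occurred 3 times in overlapping register, and in Bst2 and Irgm1 2 times. In Gbp3 they lay on the opposite strand, so that TTTC is seen in place of GAAA. The run of capitals in Bst2 begins with GAS letters that share bases with the first ISRE match, the only such overlap among the promoters of these genes. In Irf1 the only match was to GAS.

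In the lung channel, well above background were 49.1% to 72.8% of an array's spots (median 62.1%), and no Cy5 spot was saturated. There were 19 slides and 11 days of scanning. One vehicle array of day 1, replicate 1, stood low for many of the genes (Isg15, Bst2, Ifit3 and Psmb8 below), and values without it are given with the changes against vehicle on day 1. Because the tissue was whole lung, more cells of a type and more RNA per cell cannot be told apart in any result here.

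The first comparison asked which of the genes changed with the dose of an NM on day 1. With NRCWE-030 the genes were higher at 162 µg throughout: all 34 had a positive change against vehicle, with a median of 0.67, where the median over all genes was 0.0045. Of the 34, 14 were called (limma, Benjamini-Hochberg adjusted p under 0.05 over all genes), all of them higher, against 1.69% of all genes called and 1.22% called higher. In 20 of the 34 every exposed mouse lay above every vehicle mouse, which held for 2.9% of all genes. Isg15 had the largest change and Irf1 the smallest. The median change was 0.04 at 18 µg and 0.19 at 54 µg, and at those doses limma called 0 of the 34 (2 and 4 at an unadjusted p under 0.05), against 0.00536% and 0.0804% of all genes. At 54 µg, Bst2 and Oasl2 were the only genes of the 34 in which every exposed mouse lay above every vehicle mouse, against 1.06% of all genes. The F-test over vehicle and the 3 doses called 5 of the 34 (Isg15, Zbp1, Oasl2, Bst2 and Usp18), against 0.954% of all genes. Below, changes are given ± the standard error of the limma fit, with 5 mice in each group.

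**Figure D1:**
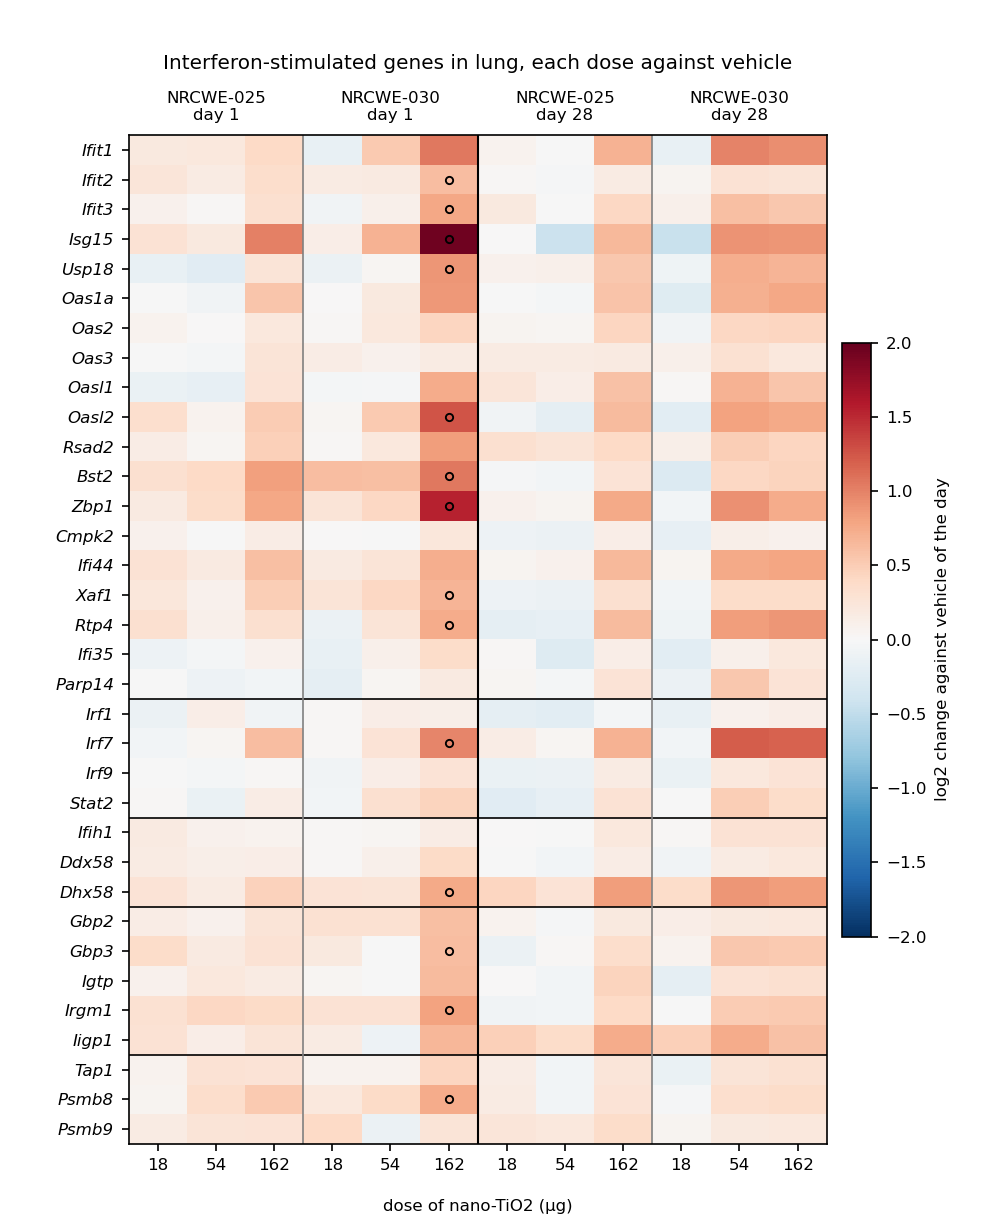
Change of each of the 34 genes (rows, grouped by role between the lines) against the vehicle mean of the day, for each NM, day and dose (columns), as a log2 difference in colour. Circles mark genes called by limma at an adjusted p under 0.05: all 14 circles lie at 162 µg of NRCWE-030 on day 1, while the pale columns at 18 µg have medians from -0.06 to 0.15.

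The antiviral effectors made up 9 of the 14 called genes, out of 19 measured. Isg15, a ubiquitin-like protein that is attached to other proteins, had log2 ratios of -2.24, -0.83, -1.35, -1.23 and -0.68 in the vehicle mice of day 1 (replicates 1 to 5, as in all such lists), -1.18, -1.64, -1.57, -0.81 and -0.48 at 18 µg of NRCWE-030, -0.81, -1.24, -0.21, -0.90 and 0.35 at 54 µg and 1.34, 0.52, 0.97, 0.06 and 0.55 at 162 µg. At 162 µg every mouse lay above every vehicle mouse, whereas 3 of the 5 mice at 54 µg lay within the vehicle range. The change at 162 µg was 1.95 ± 0.32, or 3.87-fold, with an adjusted p of 0.00354 (limma). Usp18 encodes the protease that removes ISG15 from its targets and damps the receptor. Its log2 ratios were -1.31, -0.69, -1.16, -0.88 and -0.85 in vehicle and 0.31, -0.26, 0.11, -0.43 and -0.23 at 162 µg, without overlap, and the change was 0.88 ± 0.19 with an adjusted p of 0.0211. At 54 µg the values of Usp18, -1.21, -1.20, -0.88, -1.20 and -0.23, mostly fell in the vehicle range, with only replicate 5 above it.

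Zbp1, a sensor of nucleic acids in the Z form that can start cell death, had log2 ratios of -0.30, 0.21, -0.50, -0.27 and 0.04 in vehicle and 2.20, 1.19, 1.52, 0.62 and 1.31 at 162 µg of NRCWE-030. The groups did not overlap, and replicate 4 was the lowest of the exposed mice. The change was 1.53 ± 0.26, or 2.89-fold, with an adjusted p of 0.00427. At 54 µg, -0.24, -0.04, 0.75, -0.15 and 0.93, replicates 3 and 5 stood above the vehicle range and the others inside it. Oasl2, a relative of the oligoadenylate synthetases, had values of 0.02, 0.54, 0.25, 0.64 and 0.59 in vehicle, 0.72, 0.39, -0.35, 0.75 and 0.75 at 18 µg, 0.70, 0.79, 1.28, 0.69 and 1.25 at 54 µg and 2.13, 1.59, 1.62, 1.38 and 1.65 at 162 µg. Here the mice at 54 µg already lay above every vehicle mouse and those at 162 µg above every mouse at 54 µg. The change at 162 µg was 1.26 ± 0.20 with an adjusted p of 0.0026, and that at 54 µg, 0.53 ± 0.20, did not pass (adjusted p of 0.397).

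Bst2, or tetherin, which holds budding virus at the cell surface, had log2 ratios of -0.32, 0.33, 0.36, 0.31 and 0.42 in vehicle, 0.81, 0.40, 1.00, 0.87 and 1.11 at 18 µg, 0.69, 0.68, 0.91, 0.58 and 1.26 at 54 µg and 1.32, 1.35, 1.07, 1.06 and 1.56 at 162 µg of NRCWE-030. Vehicle replicate 1 stood far below the other vehicle mice. Every mouse at 54 and 162 µg, and 4 of the 5 at 18 µg, stood above all vehicle mice. The change at 162 µg was 1.05 ± 0.16 with an adjusted p of 0.00202. At 18 µg the change of Bst2, 0.62 ± 0.16, was close to that at 54 µg, 0.60 ± 0.16, and neither passed (adjusted p of 0.327 and 0.145). Bst2 was the gene of the 34 with the smallest adjusted p at each of the 3 doses.

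**Figure D2:**
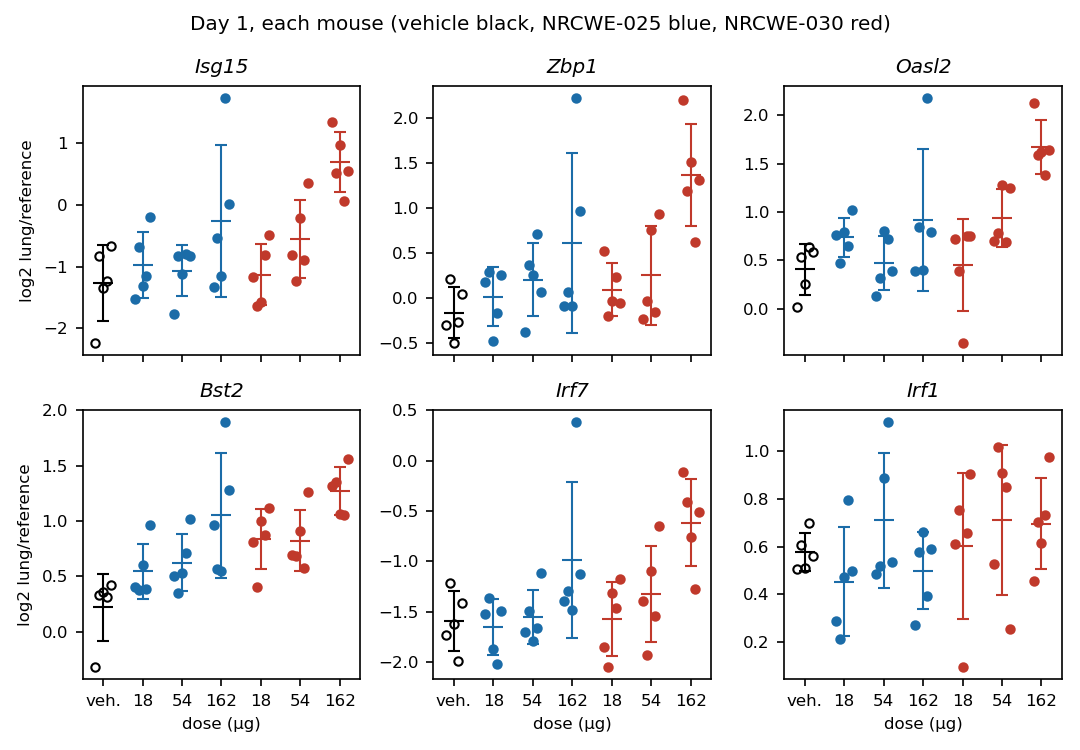
Log2 ratio of lung to reference in every mouse of day 1 for 6 of the genes, with vehicle (veh.) in black, NRCWE-025 in blue and NRCWE-030 in red, by dose in µg, and bars for the mean ± SD of each group. The 5 red points at 162 µg lie above all vehicle points for Isg15, Zbp1, Oasl2 and Bst2, overlap in 1 mouse for Irf7 and are mixed with vehicle for Irf1, and 1 blue point at 162 µg stands above the rest of its group in each panel but Irf1.

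The Ifit proteins bind viral RNA and block its translation. Ifit3 had log2 ratios of 1.57, 2.23, 2.20, 2.15 and 2.17 in vehicle and 3.19, 2.91, 2.71, 2.56 and 2.85 at 162 µg of NRCWE-030, and Ifit2 had -0.34, -0.40, -0.18, 0.01 and 0.00 and 0.70, 0.42, 0.54, 0.13 and 0.35. Neither gene overlapped between the groups. The changes were 0.78 ± 0.18 for Ifit3 (adjusted p of 0.0349) and 0.61 ± 0.13 for Ifit2 (adjusted p of 0.0165). Ifit1 had a change close to that of Bst2, 1.05 ± 0.31, but its exposed mice spread from -0.65 to 1.38, against -1.32 to -0.41 in vehicle, and it did not pass (adjusted p of 0.0922).

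Xaf1, which binds an inhibitor of cell death, had log2 ratios of 0.34, 1.04, 0.81, 0.76 and 0.76 in vehicle and 1.75, 1.44, 1.31, 1.24 and 1.37 at 162 µg of NRCWE-030. Rtp4, a chaperone of membrane receptors, had 0.50, 0.28, 0.35, 0.05 and 0.05 and 1.39, 1.14, 0.91, 0.75 and 0.76. For both genes every exposed mouse was above every vehicle mouse. The changes were 0.68 ± 0.17 for Xaf1 (adjusted p of 0.042) and 0.74 ± 0.18 for Rtp4 (adjusted p of 0.0424).

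Of the effectors, 10 did not pass at 162 µg of NRCWE-030 on day 1. The oligoadenylate synthetases, which make the activator of RNase L, had changes of 0.86 for Oas1a, 0.42 for Oas2 and 0.16 for Oas3, and their relative Oasl1 of 0.74. Rsad2, the radical enzyme viperin, had 0.83, and Ifi44 0.73. The changes were 0.37 for Ifi35, 0.23 for the mitochondrial nucleotide kinase Cmpk2 and 0.17 for the ADP-ribosyltransferase Parp14. In Oas1a, Oas2 and Ifi44 every exposed mouse nevertheless lay above every vehicle mouse. The value of Oas2 averages 2 probes that disagree: the change was 0.78 on the probe well above background on all 69 arrays and 0.07 on the other, which was so on 1 array. With NRCWE-025 the same probes of Oas2 gave 0.50 and -0.08. Probes of Cmpk2 (0.0013 and 0.46), Irf9 (0.02 and 0.52) and Ifih1 (-0.0051 and 0.31) also differed in size at 162 µg of NRCWE-030, while the 3 probes of Rsad2 all lay between 0.51 and 0.93.

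Of the 4 transcription factors, which had a median change of 0.36, Irf7 passed. IRF7 is the factor that amplifies type I interferon once the first interferon has acted. Its log2 ratios were -1.73, -1.21, -1.62, -1.99 and -1.41 in vehicle, -1.39, -1.93, -1.10, -1.54 and -0.65 at 54 µg and -0.11, -0.41, -0.76, -1.27 and -0.51 at 162 µg of NRCWE-030. Replicate 4 at 162 µg lay inside the vehicle range and the other 4 mice above it. The change was 0.98 ± 0.23 with an adjusted p of 0.0379. Stat2 and Irf9, partners in the complex that binds the ISRE, had changes of 0.45 ± 0.19 and 0.27 ± 0.09 (adjusted p of 0.291 and 0.152). Irf1, a factor that responds above all to interferon gamma, had log2 ratios of 0.51, 0.61, 0.51, 0.70 and 0.56 in vehicle and 0.46, 0.70, 0.61, 0.73 and 0.97 at 162 µg. In Irf9 every exposed mouse lay above every vehicle mouse, whereas in Irf1 the groups overlapped and replicate 5 stood above the others. The Irf1 change of 0.12 ± 0.15 was the smallest of the 34.

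Among the RNA sensors, which detect viral RNA in the cytosol, Dhx58 (LGP2) passed, with log2 ratios of 0.05, 0.37, 0.17, 0.34 and 0.33 in vehicle and 1.46, 1.06, 0.91, 0.74 and 0.91 at 162 µg of NRCWE-030. The groups did not overlap, and the change was 0.76 ± 0.18 (adjusted p of 0.0327). Ddx58 (RIG-I) had a change of 0.39 ± 0.10 and Ifih1 (MDA5) of 0.15 ± 0.08, and neither passed (adjusted p of 0.0625 and 0.453).

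The 5 interferon-inducible GTPases act on the vacuoles of intracellular microbes, and 2 of them passed. Irgm1 had log2 ratios of 0.05, -0.01, -0.07, 0.22 and 0.29 in vehicle and 1.08, 0.90, 0.80, 0.78 and 0.95 at 162 µg of NRCWE-030, with a change of 0.81 ± 0.16 (adjusted p of 0.0145). Gbp3 had 1.65, 1.74, 1.80, 1.61 and 1.85 and 2.48, 2.33, 2.32, 2.33 and 2.30, with a change of 0.62 ± 0.14 (adjusted p of 0.0306). All 5 GTPases had every exposed mouse above every vehicle mouse. Gbp2, Igtp and Iigp1 had changes of 0.59, 0.63 and 0.66 with adjusted p of 0.0872, 0.06 and 0.235, so that the 5 changes lay between 0.59 and 0.81.

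Of the antigen processing genes, Psmb8, a subunit of the immunoproteasome, had log2 ratios of -0.38, 0.60, 0.55, 0.59 and 0.95 in vehicle and 1.07, 1.13, 1.35, 1.18 and 1.25 at 162 µg of NRCWE-030. The exposed mice formed a narrow band above all vehicle mice, of which replicate 1 was again the lowest. The change was 0.74 ± 0.19, and its adjusted p of 0.0486 was the closest to the threshold of the 14. Without vehicle replicate 1 the change was 0.52 and not called (adjusted p of 0.0722), and beside the settings that left out an array it was called in 5 of 11 alternatives. Psmb9, another such subunit, had a change of 0.26 (adjusted p of 0.622) and the peptide transporter Tap1 of 0.43 (adjusted p of 0.223).

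These calls changed with terms for slide or scan day in the model and with single arrays left out, and the cause was not tested. When slide, or the day of scanning, entered the model as a fixed term, limma called 0 of the 34 in place of 14, with changes of Isg15 of 1.61 and 1.52 and an adjusted p of Bst2 of 0.0647 and 0.0783. The share of all genes called is not given for these or the following settings. Whether calls were lost in these genes more than in others therefore cannot be told. On the 2 slides that held both vehicle and 162 µg of NRCWE-030 on day 1, 1 array of each, the median change of the 34 was 0.92 and 0.54, with 32 of 34 genes higher on each, and that of Isg15 was 2.57 and 1.64. Within the 2 shared scan days the medians were 0.92 and 0.38. Leaving out 1 array at a time gave 6 to 17 called genes: 6 without replicate 1 or 3 at 162 µg, 7 without vehicle replicate 1, 3 or 4 or replicate 2 or 5 at 162 µg, 8 without vehicle replicate 2 and 9 without vehicle replicate 5. The F-test over doses then called 3 to 10 in place of 5: 3 without replicate 3 at 162 µg, 8 without replicate 4 at 162 µg or replicate 3 at 18 µg, 9 without replicate 3 at 54 µg and 10 without replicate 5 at 54 µg. Without vehicle replicate 1 the median changes of the 34 at 18 and 54 µg were -0.0031 and 0.12. At 162 µg the median without it was 0.59, and the 7 genes called were Bst2, Ifit2, Irgm1, Isg15, Oasl2, Rtp4 and Zbp1. The changes without it were 1.71 for Isg15, 0.91 for Bst2 and 0.66 for Ifit3, which lost its call (adjusted p of 0.0882).

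NRCWE-025 on day 1 gave smaller and less even values than NRCWE-030 at 162 µg, but not at 18 µg. At 162 µg, 32 of the 34 genes had a positive change, with a median of 0.28. limma called 0 of the 34 (8 at an unadjusted p under 0.05), where 0.209% of all genes were called, and the F-test over doses also called 0 of the 34 (1 unadjusted), where it called 0.0214% of all genes. The medians at 18 and 54 µg were 0.15 and 0.10, with 25 of 34 genes higher at each, and limma called 0 of the 34 and 0 of all genes there (2 and 1 of the 34 unadjusted). Without vehicle replicate 1 the medians at 18, 54 and 162 µg were 0.05, 0.06 and 0.28. The 3 largest changes at 162 µg were those of Isg15, 1.00 ± 0.44, Bst2, 0.83 ± 0.21, and Zbp1, 0.78 ± 0.33, with adjusted p of 0.351, 0.105 and 0.348.

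Replicate 4 stood apart at this dose. Isg15 had log2 ratios of -1.33, -0.54, -1.15, 1.72 and 0.00 at 162 µg of NRCWE-025, Zbp1 had -0.09, 0.06, -0.10, 2.22 and 0.97 and Bst2 had 0.96, 0.56, 0.55, 1.89 and 1.28. It was the highest of the 5 mice in all 3 genes, and also higher than any mouse given 162 µg of NRCWE-030 on day 1. In that mouse 32 of the 34 genes lay above every vehicle mouse, against 21.6% of all genes. The median of the 34 was 1.13 above the vehicle mean, against 0.01 to 0.26 in the other 4 mice. The same array had the highest mean of the neutrophil markers of all 69 against the vehicle mean of its day, 0.83, where the highest day 1 vehicle mouse was at 0.18, and an epithelial mean of -0.80, where the lowest was at -0.46. All arrays of its scan day had a low epithelial mean, from -0.46 in that vehicle mouse to -0.89 in replicate 3 at 18 µg of NRCWE-030. The part of these cells in the values of this mouse was not tested. Without it the median change of the 34 at 162 µg was 0.13. The 2 slides with both groups, those of replicates 1 and 2, gave medians of 0.24 and 0.28, and the scan day of replicate 4 gave 0.97. In Bst2 all 5 mice lay above every vehicle mouse, the only gene of the 34 for which this held (0.874% of all genes). In the 5 mice at 162 µg of NRCWE-030 on day 1 the median of the 34 above the vehicle mean was 0.94, 0.68, 0.66, 0.39 and 0.60. Of the 34 genes, 25 to 31 lay above every vehicle mouse there, against 17.1% to 22.4% of all genes.

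**Figure D3:**
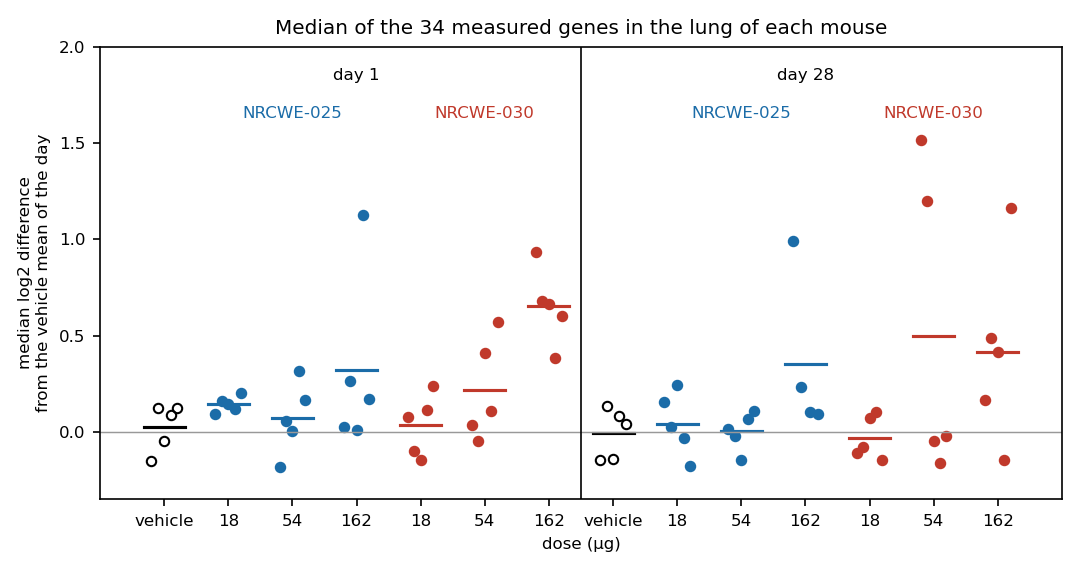
Median over the 34 genes of the log2 difference from the vehicle mean of the day, for each of the 69 mice (points) by NM, dose in µg and day, with a line at the mean of each group. At 162 µg of NRCWE-030 on day 1 all 5 mice lie between 0.39 and 0.94, whereas on day 28 the highest mouse, at 54 µg of NRCWE-030, reaches 1.52 and the mice at 162 µg of NRCWE-030 lie between -0.15 and 1.16.

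The NMs were then compared directly at matched doses, in 1 fit of all 14 groups, with p-values adjusted over all genes within each of the 6 pairs of groups. On day 1 the level at 162 µg of NRCWE-030 exceeded that at 162 µg of NRCWE-025 in 32 of the 34 genes, with a median difference of 0.30. limma called 0 of the 34 (4 unadjusted), and 0 of all genes (1144 unadjusted). At 18 and 54 µg on day 1 the median differences were -0.04 and 0.13, with 0 of the 34 called or below an unadjusted p of 0.05, against 0.0482% and 0.0589% of all genes called. For Isg15 the difference was 0.95 (95% confidence interval -0.04 to 1.94), for Oasl2 0.75 (0.05 to 1.46) and for Bst2 0.22 (-0.33 to 0.77), with adjusted p of 0.83, 0.803 and 0.93. The interval of Isg15 reaches from no difference to one about as large as its change with NRCWE-030. The F-test between the NMs over the 3 doses of day 1 called 0 of the 34 (1 unadjusted), against 0.155% of all genes.

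On day 28 no gene of the 34 was called at any dose of either NM, and 4 mice were high in nearly all of the genes. With NRCWE-030 the medians over the 34 genes were -0.06 at 18 µg, 0.49 at 54 µg and 0.43 at 162 µg, and all 34 genes were higher at each of the upper doses. With NRCWE-025 they were 0.03, -0.03 and 0.38, with 33 of 34 higher at 162 µg. limma called 0 of the 34 in each contrast. Of all genes it called 0.118%, 0.0536% and 0.0965% at 18, 54 and 162 µg of NRCWE-030, and 0.0589%, 0.0268% and 0.0161% at those doses of NRCWE-025. At an unadjusted p under 0.05 there were 5 genes of the 34 at 162 µg of NRCWE-030, 6 at 54 µg and 15 at 162 µg of NRCWE-025. The F-tests over doses also called 0 for both NMs, against 0.102% of all genes for NRCWE-030 (4 of the 34 unadjusted) and 0.0268% for NRCWE-025 (7 unadjusted).

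The 3 largest changes at 162 µg of NRCWE-030 on day 28 were those of Irf7, 1.18 ± 0.62, Ifit1, 0.92 ± 0.49, and Rtp4, 0.88 ± 0.38, with adjusted p of 0.705, 0.705 and 0.626. Irf7 had log2 ratios of -1.68, -1.12, -1.68, -1.39 and -1.34 in the vehicle mice of day 28, 1.82, 1.47, -1.44, -1.75 and -1.21 at 54 µg and -1.17, 0.51, -0.61, -1.70 and 1.66 at 162 µg. Replicates 1 and 2 at 54 µg and 5 at 162 µg stood far above every vehicle mouse, replicate 2 at 162 µg was intermediate, and replicates 3 to 5 at 54 µg lay in or near the vehicle range. Ifit1 had -0.53, -0.33, -0.21, -0.28 and -0.21 in vehicle, 1.87, 2.28, -0.20, -0.50 and -0.04 at 54 µg and -0.10, 1.35, 0.31, -0.49 and 2.00 at 162 µg. Rtp4 had 0.67, 0.63, 0.56, 0.74 and 0.61, 2.75, 2.62, 0.60, 0.63 and 0.80 and 1.24, 1.81, 1.41, 0.58 and 2.59 in the same groups. The same mice were high in both. In Rtp4 the vehicle mice were alike, from 0.56 to 0.74, and 4 of the 5 mice at 162 µg lay above them.

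At 162 µg of NRCWE-025 on day 28 the largest changes were those of Dhx58, 0.83 ± 0.21, Zbp1, 0.76 ± 0.29, and Iigp1, 0.75 ± 0.27, with adjusted p of 0.34, 0.592 and 0.571. Dhx58 had log2 ratios of 0.15, 0.29, 0.03, 0.49 and 0.55 in vehicle and 2.13, 0.95, 0.68 and 0.77 in the 4 exposed mice, all 4 above every vehicle mouse. Zbp1 had -0.21, 0.30, 0.27, 0.55 and 0.24 in vehicle and 2.31, 0.46, 0.28 and 0.89 in the exposed mice, and Iigp1 3.42, 3.71, 3.06, 3.96 and 3.67 and 5.07, 4.63, 3.63 and 3.93. Replicate 1 was the highest exposed mouse in all 3 genes, while replicates 2 and 3 for Zbp1 and 3 and 4 for Iigp1 lay within the vehicle range.

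Gene by gene, the same few mice led on day 28. Of the 34 genes, 33 lay above every vehicle mouse in replicate 1 at 54 µg of NRCWE-030, 32 in replicate 2 of that group, 33 in replicate 5 at 162 µg of NRCWE-030 and 31 in replicate 1 at 162 µg of NRCWE-025. Their medians over the 34 genes were 1.52, 1.20, 1.16 and 0.99 above the vehicle mean, more than the 0.94 of the highest day 1 mouse given 162 µg of NRCWE-030. The other 3 mice at 54 µg of NRCWE-030 had medians of -0.05, -0.16 and -0.02. The medians of replicates 1 to 4 at 162 µg of NRCWE-030 were 0.16, 0.49, 0.42 and -0.15. Over both days, 9 of the 59 exposed mice had 30 or more of the 34 genes above every vehicle mouse of their day (a number chosen after the values were seen), 7 of them at 162 µg, 2 at 54 µg and 0 at 18 µg. For all genes the share above every vehicle mouse ran from 12.6% to 30.8% over the exposed mice. Without replicate 5 the day 28 median for 162 µg of NRCWE-030 was 0.22, and without replicate 1 that at 162 µg of NRCWE-025 was 0.14. At 54 µg of NRCWE-030 it was 0.21 without replicate 1 and 0.31 without replicate 2. In these 4 mice 3 lists of cell type markers lay above the vehicle range, as they did in some other exposed mice of day 28. They are given below in the same order and against the vehicle mean of the day. The mean of the plasmacytoid dendritic cell markers was 0.46, 0.57, 0.29 and 0.40 higher, where the highest vehicle mouse was at 0.27 and the highest of the other exposed mice of day 28 at 0.42. For T cells it was 0.35, 0.54, 0.21 and 0.42, against 0.11 and 0.48, and for monocytes and macrophages 0.22, 0.45, 0.54 and 0.25, against 0.15 and 0.44. In replicate 5 at 18 µg of NRCWE-030, whose median of the 34 was -0.15, the T cell and macrophage lists were at 0.48 and 0.27. The B cell list lay inside the vehicle range in all 4 mice. The NK cell list was at -0.34 in replicate 2 at 54 µg and -0.29 in replicate 5 at 162 µg of NRCWE-030, below the lowest vehicle mouse at -0.24. The endothelial mean was -0.28, -0.04, -0.35 and -0.51, where the lowest vehicle mouse was at -0.17 and the lowest of the other exposed mice of day 28 at -0.42. Of the 4 mice, only replicate 2 at 54 µg of NRCWE-030 lay in the vehicle range. The part of these cells in the 4 mice was not tested.

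**Figure D4:**
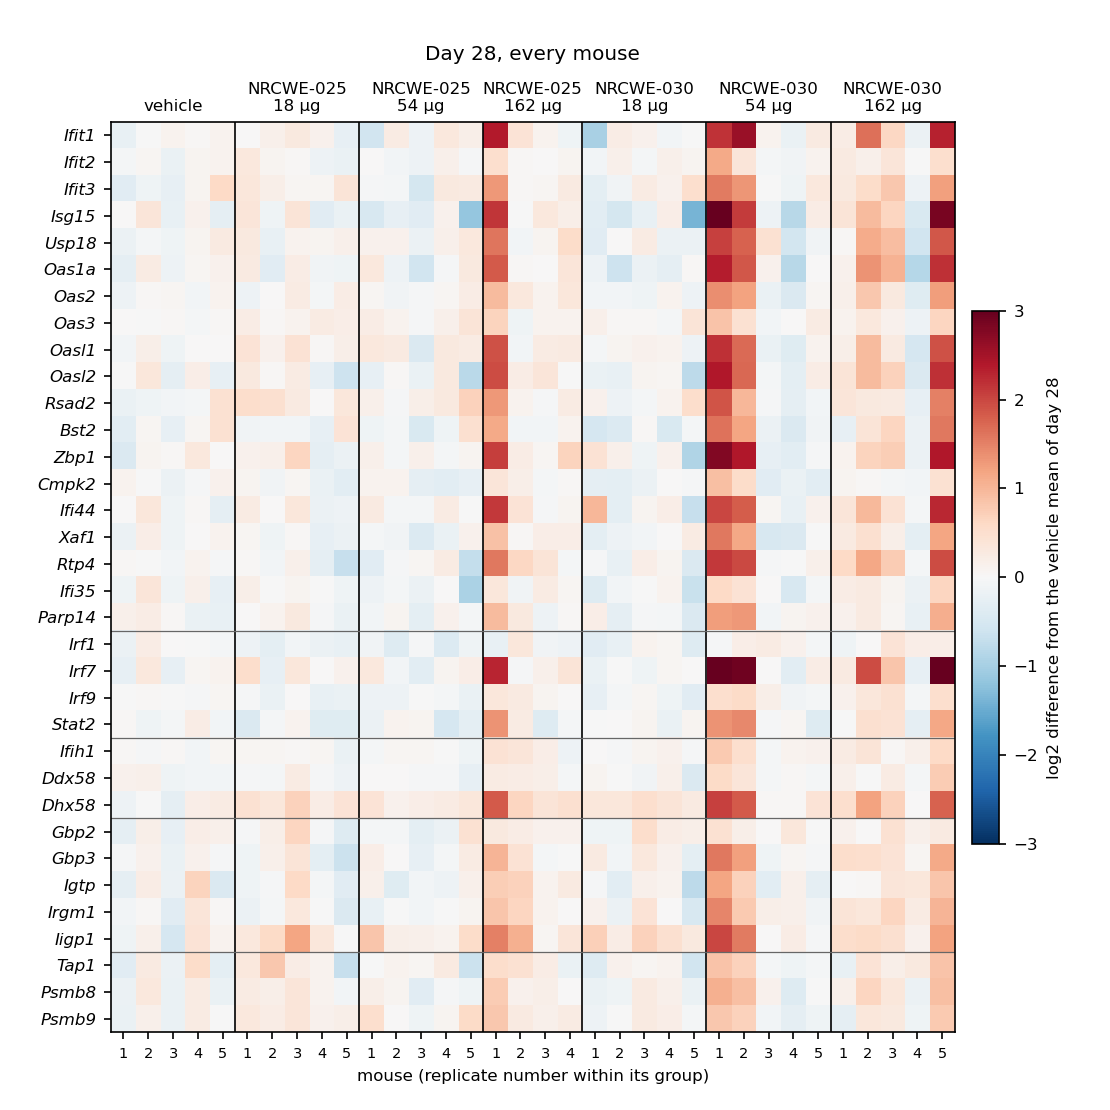
Log2 difference from the vehicle mean of day 28 for each of the 34 genes (rows, grouped by role between the lines) in each mouse of day 28 (columns, numbered by replicate within the group), with colours that end at -3 and 3. Replicates 1 and 2 at 54 µg and 5 at 162 µg of NRCWE-030 and replicate 1 at 162 µg of NRCWE-025 are red in most rows but not in that of Irf1.

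These 4 mice lay on 4 slides. Replicates 1 and 2 at 54 µg of NRCWE-030 shared their slides with a vehicle mouse each, and their medians over the 34 genes within those slides were 1.59 and 1.28, while the slide of replicate 3 gave -0.05. At 162 µg of NRCWE-030 the 3 slides with both groups gave 0.34, 0.63 and 0.41, and at 162 µg of NRCWE-025 the only such slide, that of replicate 1, gave 1.06. Between the NMs on day 28, the median difference of NRCWE-030 minus NRCWE-025 was -0.11 at 18 µg, 0.48 at 54 µg and 0.08 at 162 µg, and limma called 0 of the 34 at the 3 doses (0, 17 and 0 unadjusted), where it called 0, 0.0804% and 0.0161% of all genes. At 54 µg Rtp4 had the smallest adjusted p, with a difference of 1.00 (95% confidence interval 0.39 to 1.61, adjusted p of 0.261). The F-test between the NMs on day 28 called 0 of the 34 (4 unadjusted), against 0.241% of all genes.

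The effect of 162 µg was also compared between the days. For NRCWE-030 the change on day 1 exceeded that on day 28 in 24 of the 34 genes, with a median difference of 0.14. limma called 0 of the 34, where 0.198% of all genes were called, and the largest difference was that of Isg15, 1.07 ± 0.70, with an adjusted p of 0.768. For NRCWE-025 the median difference was -0.06, and 0 of the 34 were called, against 0.0589% of all genes. In the vehicle mice themselves, 31 of the 34 genes were higher on day 28 than on day 1, with a median of 0.26 where that of all genes was -0.0077. limma called 0 of the 34 (7 unadjusted), against 0.0375% of all genes. The largest of these differences was that of Bst2, 0.66 ± 0.27, with an adjusted p of 0.473. Vehicle replicate 1 of day 1, low for Bst2, is part of this comparison, and no value without it is given here.

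How far the genes varied together was described over the 69 arrays, after subtracting the mean of each group. The correlation of a gene with the median of the other 33 had a median of 0.80 over the 34 genes. It was highest for Dhx58 (0.93), Irf7 (0.92) and Zbp1 (0.91), and lowest for Tap1 (0.53), Gbp2 (0.34) and Irf1 (-0.05). The values of 1 mouse come from 1 array and share its normalization, so these correlations describe the arrays. In the day 28 mouse with the highest median, replicate 1 at 54 µg of NRCWE-030, Irf7 was at 1.82 against a vehicle mean of -1.44, and Irf1 at 0.84 against 0.89.

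The rest of the pathway was read from lists of ligands and receptors, signalling genes and other interferon-stimulated genes. On day 1, at the 162 µg dose of NRCWE-030, 0 of 15 measured ligands and receptors were called. Of these 15, 8 were well above background on a minority of the arrays, among them Ifnb1, the gene of interferon beta, which was so on 1 of 69 arrays, and no direction is given for them. The receptor genes Ifnar1 and Ifnar2 were detected on all 69 arrays and had changes of -0.08 and 0.08, with adjusted p of 0.91 and 0.822. Of 23 signalling genes 2 were called, both higher, where 1.22% of all genes were called higher: Sting1, the adaptor of cytosolic DNA sensing, at 0.80 ± 0.16 (adjusted p of 0.0155) and Myd88, the adaptor of Toll-like and interleukin-1 receptors, at 0.42 ± 0.10 (adjusted p of 0.0372).

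Of 45 other interferon-stimulated genes measured, 11 were called at 162 µg of NRCWE-030 on day 1, all of them higher, where 1.22% of all genes were called higher, and 41 had a positive change, with a median of 0.36. They were the chemokine Cxcl9 (0.99), the translation-blocking kinase Eif2ak2 (0.94), the membrane proteins Ifitm3 (0.87) and Ifitm2 (0.38), Lgals3bp (0.86), Ifi204 (0.83), Gbp6 (0.81), Parp9 (0.69), Ifit3b (0.60), the proteasome activator Psme1 (0.48) and the ISG15 ligase Herc6 (0.36). Ifit3b is a close copy of Ifit3, and their probes may share signal. At 162 µg of NRCWE-025 on day 1 the 45 genes had a median of 0.21, with 39 higher and 0 called (0.209% of all genes), and at 162 µg of NRCWE-030 on day 28 a median of 0.22, with 40 higher and 0 called (0.0965% of all genes).

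Markers of cell types were read from the same arrays. On day 1, 162 µg of NRCWE-030 gave a call for 1 of 6 measured neutrophil markers, against 1.69% of all genes. It was Csf3r, the receptor of granulocyte colony-stimulating factor (1.25 ± 0.20, adjusted p of 0.00262). The mean log2 ratio of the neutrophil list per mouse was 2.31 to 2.86, which overlapped with 1.85 to 2.42 in vehicle. Csf3r is part of this mean, and no direction is given here for the other neutrophil markers, which were not called. The 7 measured monocyte and macrophage markers had a median change of 0.27 with 0 called, and their mean was 2.76 to 3.13, against 2.57 to 3.01. The 6 epithelial markers were all lower, with a median of -0.47 and 0 called, and the list spanned 5.10 to 5.89 against 5.34 to 6.21, far above the reference in every mouse. Against the vehicle mean, exposed replicate 1 was at 0.09 and replicates 2 to 5 between -0.42 and -0.70. Vehicle replicate 4, from the scan day of exposed replicate 1, was at 0.41. Vehicle replicate 5, from the scan day of exposed replicates 3 and 4, was at -0.46. The part of scan day in this list was not tested. The 5 markers of plasmacytoid dendritic cells, the main source of interferon alpha, were all lower, with a median of -0.20 and 0 called, and spanned 0.15 to 0.61 against 0.48 to 1.04. The 4 endothelial markers had a median of -0.17 with 0 called, and their mean did not overlap between the groups, at 3.88 to 4.08 against 4.09 to 4.32. The medians of the T, NK and B cell markers were -0.05, -0.03 and -0.18 with 0 called in each list, and all 3 lists overlapped with vehicle. Markers of heart muscle and fat, tissues that border the lung, had medians of -0.48 and -0.68 with 0 called and spread widely between mice, from 0.26 to 3.66 and from 0.65 to 3.65 in the exposed group and from 1.22 to 4.97 and from 1.60 to 5.66 in vehicle. On day 28 the neutrophil markers were lower at 162 µg of NRCWE-030, with a median of -0.83 and 1 of 6 called (0.0965% of all genes), the gelatinase Mmp9 (-1.11 ± 0.16, adjusted p of 0.00289), and the macrophage list was higher in 7 of 7, with a median of 0.43 and 0 called. The neutrophil list spanned 1.81 to 2.17 there, against 2.03 to 3.34 in vehicle. Its group mean was 2.05 to 2.34 over all doses of both NMs on day 28, against 2.82 in vehicle. In the vehicle mice of day 1 it was 2.24. The part of these cells and tissues in the levels of the interferon-stimulated genes was not tested.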

How the data were processed

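RNA from the lung of 1 mouse per array was labelled with Cy5 and hybridised with Universal Mouse Reference RNA in Cy3 on Agilent arrays of 45018 spots, with no dye swap, per the labels. The deposited scanner files, which the authors made with Agilent Feature Extraction, hold the median intensity of each spot and of its local background in both channels, quality flags (values of 0 or 1 per the file headers) and a log10 ratio of Cy5 over Cy3. The authors' series table holds log2 ratios that follow loess-normalized ratios without background correction (median correlation 0.996, slope 0.993), with a median near 0 on each array. The log10 ratio and this log2 table served as alternatives.

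From the deposited intensity values, local backgrounds marked as outliers by the scanner software were replaced by the array median of the others, because without this step the fitted Cy5 background mean was as low as -259.4 on 1 array (lowest with it -14.4). The normexp method with an offset of 50 then removed background, and each array was normalized by loess with control and outlier spots at weight 0. Spots of a probe and probes of a gene were combined by the median. Of 41174 probes, 66.8% were matched by accession to a RefSeq symbol, which gave 18753 symbols, and 18660 with a value on every array were tested with limma 3.58.1 in R 4.3.3. Each NM and day was fitted with its vehicle group (a moderated F-test over doses and contrasts of each dose with vehicle), and 1 fit of all 14 groups compared the NMs, the days and the vehicle groups. P-values were two-sided and adjusted by the Benjamini-Hochberg method over all genes, and 0.05 was the threshold. They measure the spread between single mice on single arrays, and the number of arrays limits the precision. The script was tested on simulated data with planted changes.

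The genes, the pathway lists and the marker lists were chosen with earlier results of these data known. Single-array values are given for genes called in a dose test or a contrast with vehicle and for the 3 with the largest change at 162 µg of each NM on each day, probes are given where they disagree in direction by more than 0.5, and of the pathway lists only called genes are named, with Ifnar1, Ifnar2 and Ifnb1 in addition. A result of 1 further gene is not reported here. Alternatives were the background, the normalization, the filter on dim probes, the probe of a gene, slide and scan day as blocks, 1 joint fit, an ordinary F-test, and leaving out each array. Promoters were searched in Python 3.11.15 and figures drawn with matplotlib 3.10.9.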

Additional observations from a re-analysis of the deposited data

Results flagged for a closer look

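Of 42 groups of values examined, 5 held a mouse farther from the rest than the 95% critical value of Dixon's test allows, and chance gives about 1 in 20. At 162 µg of NRCWE-025, replicate 4 on day 1 had a median over the 34 genes of 1.13 above the vehicle mean, where the next mouse had 0.262, and replicate 1 on day 28 had 0.99, where the next had 0.232. Vehicle replicate 1 of day 1 was the lowest for Bst2, at a log2 ratio of -0.315 against 0.314 in the next mouse, and for Ifit3, at 1.57 against 2.15. For Gbp3, replicate 1 at 162 µg of NRCWE-030 on day 1 was the highest, at 2.48 against 2.33, in a group whose other mice were nearly alike.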

How the results depend on the processing

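For NRCWE-030 on day 1, 2 counts moved with the processing: the 5 of 34 genes called over doses and the 14 called against vehicle. The counts were 10 over doses with the scanner log ratio, and 12 with slide as a random block. With a fixed term for slide, or for the day of scanning, both counts were 0, in fits with 8 and 9 residual degrees of freedom. In 1 fit of all 14 groups they were 1 and 8, and with an ordinary F-test the count over doses was 3. Leaving out 1 array at a time gave 3 to 10 over doses and 6 to 17 against vehicle. Under the other settings the counts were 5 to 7 over doses and 13 to 18 against vehicle. The share of all genes called in these settings is not given, and the cause of these differences was not tested. The counts of 0 for NRCWE-025 on both days, NRCWE-030 on day 28, the NMs and the days stayed at 0 in every setting and without each array. The median change of the 34 genes at 162 µg stayed positive for both NMs on both days, from 0.537 to 0.797 for NRCWE-030 on day 1. Single changes turned sign in 3 cases at 162 µg of NRCWE-025: Iigp1 on day 1 was -0.224 with local backgrounds as deposited, Usp18 on day 1 ranged from -0.117 without replicate 4 to 0.394 without replicate 1, and Bst2 on day 28 from -0.0197 without replicate 1 to 0.386 without replicate 2. Leaving out the 4 arrays with the lowest fitted Cy5 background mean, or 1 array that departed from the authors' table, was chosen after seeing the data and moved no count by over 1.5 times. No paired analysis was possible because the labels give a running sample number and no replicate number shared between groups. Signals near background limit the type I interferon genes, and 1 probe each of Oas2, Oas3, Ifih1 and Ddx58, well above background on 1, 5, 17 and 32 arrays.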
